A study of Caenorhabditis elegans with 12 samples.

Results

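The 2 single mutants of a study of the mitochondrial matrix protease LONP-1 were compared directly across all genes, lonp-1(cmh24) against mrps-38(P210L). The comparison took 6 of the 12 RNA-seq libraries of the series, which were the 3 labelled biological replicates of each single mutant. lonp-1(cmh24) worms carry the cmh24 allele of lonp-1, and mrps-38(P210L) worms carry an amino acid substitution in MRPS-38, which belongs to the small mitochondrial ribosomal subunit. All worms were whole Caenorhabditis elegans fed HT115 E. coli and labelled as harvested at the fourth larval stage (L4), and the labels give each single mutant its own mutation alone. The remaining 6 libraries, 3 of the double mutant and 3 of wildtype, entered the estimate of the spread and are given as side values. The labels do not describe the lesion of cmh24, the sex of the worms or the number of worms per library. They call the replicates biological without saying what separated them, so p-values measure the spread between these libraries.

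LONP-1 is an ATP-dependent protease of the mitochondrial matrix that degrades misfolded and regulatory proteins, among them factors that package and express mitochondrial DNA in other animals. The mitochondrial genome of worms encodes a small set of respiratory chain subunits and the mitochondrial ribosomal RNAs, and nuclear genes supply all other subunits and the proteins of the mitochondrial ribosome. Worms with disturbed mitochondria induce mitochondrial chaperones through the transcription factor ATFS-1 and often develop slowly. The end of larval life in hermaphrodites brings sperm, then oocytes, yolk and an adult cuticle.

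Each of the 6 libraries held 22614493 to 22850508 reads in genes. Reads were found for 19131 to 19209 genes in lonp-1(cmh24) libraries and for 18072 to 18337 genes in mrps-38(P210L) libraries. In mrps-38(P210L), replicate 3 lay away from replicates 1 and 2, with scores on the first principal component of the 12 libraries of 121.8 for replicate 3 and 172.8 and 173.8 for the others, and it held more yolk, sperm and adult collagen transcripts. Most values that rest on it are given below with and without it. Replicate 1 of lonp-1(cmh24) lay below its replicates in mitochondrial, yolk and oocyte transcripts and above them in a set of collagens described below. Weights that limma gave each library, low for those far from their genotype, were lowest for these 2 libraries. They were 0.2161 for replicate 1 of lonp-1(cmh24) and 0.2793 for replicate 3 of mrps-38(P210L). The lonp-1 transcript itself (chromosome I, 10676922 to 10682374, protein-coding, WBcel235) was present in every library, at 1341, 1333 and 1344 normalized counts in lonp-1(cmh24) and 1606, 1665 and 1569 in mrps-38(P210L). It was slightly lower in lonp-1(cmh24) on the deposited scale, with a log2 fold change of -0.27 ± 0.05, and higher on the FPKM scale (0.22), so it does not check the labels. The mrps-38 transcript was not analysed here.

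The transcriptomes of the single mutants differed broadly. Of 15717 genes tested, 12809 (81.5%) passed the limma threshold of an adjusted p of 0.05, 6703 higher in lonp-1(cmh24) (42.6%) and 6106 lower (38.8%). At least 2-fold differences were found for 3983 genes higher (25.3%) and 1972 lower (12.5%). The 3 and 3 libraries did not overlap for 12958 genes (82.4%), so a lack of overlap given for single genes below was the usual case. Without replicate 3 of mrps-38(P210L), 6614 genes were higher and 5917 lower. The median log2 fold change of all tested genes was 0.04 and the 5th and 95th percentiles were -1.38 and 3.82, so the largest differences were on the higher side.

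The split between directions depended on how libraries were scaled. The authors' size factors were 1.1863 to 1.2153 in lonp-1(cmh24) and 0.8479 to 0.8618 in mrps-38(P210L), while the read totals were nearly equal. FPKM, which uses the totals, moved the median of all genes up by 0.49, and scaling to total reads moved it up by 0.48. On FPKM 75.3% of called genes were higher, against 52.3% on the deposited counts, with 9337 genes higher (58.4% of 15990) and 3064 lower (19.2%). A log2 fold change between about -0.5 and 0 therefore changes sign with the scaling. Values below are on the deposited scale, and directions that turn on FPKM or total reads are named where they are given. Because the RNA came from whole worms, fewer cells of a type and less RNA per cell cannot be told apart. For every group of genes below, a difference in developmental progress likewise cannot be told apart from another effect of genotype.

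**Figure D1:**
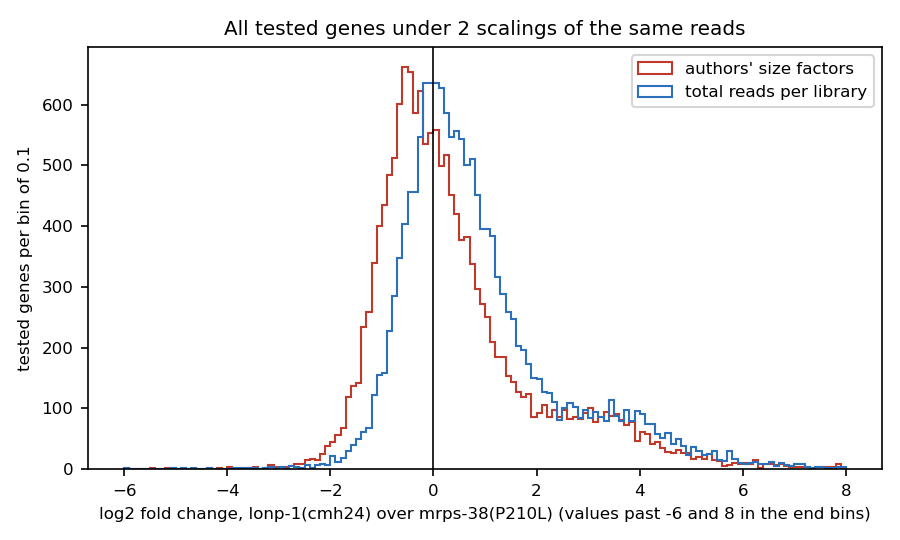
Histogram of log2 fold changes of all tested genes, lonp-1(cmh24) over mrps-38(P210L), with the authors' size factors (red) and after scaling the same reads to the total per library (blue); the y axis counts genes per bin of 0.1. Both curves have a long right tail, and the blue curve is moved right by 0.48.

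Transcripts of the mitochondrial genome were higher in lonp-1(cmh24). All 12 tested mitochondrial mRNAs and both ribosomal RNAs passed the test as higher, with a median log2 fold change of 1.54 for the mRNAs and 4.55 for the rRNAs. Together, genes on mitochondrial DNA took 2.3, 3 and 2.89% of the reads in lonp-1(cmh24) libraries and 0.593, 0.541 and 0.592% in mrps-38(P210L) libraries. These shares do not depend on size factors and did not overlap (exact permutation test, two-sided, p = 0.1, the smallest that 3 against 3 can give). mrps-38(P210L) lay near wildtype, which had a mean of 0.669%, while the double mutant had 2.24%.

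The most abundant of them, ctc-1, encodes the catalytic subunit of cytochrome c oxidase (mitochondrial DNA, 7827 to 9428). It had 141403, 185743 and 180782 normalized counts in lonp-1(cmh24) and 42007, 38044 and 40894 in mrps-38(P210L). Every lonp-1(cmh24) library was above every mrps-38(P210L) library, with replicate 1 the lowest of its genotype, and the log2 fold change was 2.06 ± 0.09 (SE; adjusted p = 5.22e-10). atp-6, a membrane subunit of ATP synthase, had 55841, 78930 and 76780 counts in lonp-1(cmh24) and 17065, 17382 and 16858 in mrps-38(P210L), a log2 fold change of 2.03 ± 0.11. The other cytochrome c oxidase subunits ctc-2 and ctc-3 differed by 1.47 and 1.76 on the log2 scale, and ctb-1, the cytochrome b of complex III, by 1.14. Among complex I subunits, log2 fold changes were 1.47 for nduo-1, 1.602 for nduo-4, 1.599 for nduo-5 and 2.21 for nduo-2. nduo-2 and nduo-3 were lowest in replicate 3 of mrps-38(P210L), and without it their values were 1.78 and 1.15.

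The mitochondrial ribosomal RNAs differed more than the mRNAs. MTCE.7, the small-subunit rRNA, had 5203, 7269 and 6910 normalized counts in lonp-1(cmh24) and 274, 269 and 263 in mrps-38(P210L). MTCE.33, the large-subunit rRNA, had 2820, 4021 and 3705 counts in lonp-1(cmh24) and 146, 136 and 165 in mrps-38(P210L). The groups were far apart, with log2 fold changes of 4.57 ± 0.12 (adjusted p = 2.79e-11) and 4.54 ± 0.15 (adjusted p = 1.95e-10). As a share of reads the pair took 0.0527% ± 0.00962 in lonp-1(cmh24) and 0.00158% ± 5.81e-05 in mrps-38(P210L) (SD, n = 3 each), a ratio of 33.5. The labels give a stranded paired-end library without saying how RNA was selected, so these shares are of the RNA that entered the libraries.

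Nuclear genes of the same machinery were lower in lonp-1(cmh24). Of 35 nuclear subunits of complex I (NADH dehydrogenase), 34 were lower and 1 was higher, with a median of -0.69. The counts were 15 lower and 1 higher of 16 for complex V (ATP synthase, median -0.94), 11 and 3 of 14 for complex III (median -0.78) and 4 and 1 of 5 for complex II (median -0.70). On FPKM these medians were closer to 0 but kept their sign, at -0.21 for complex I and -0.46 for complex V, against 0.53 for all genes. For nuclear subunits and assembly factors of complex IV, 14 of 24 were lower and 4 higher, and their median of -0.30 turned to 0.18 on FPKM.

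The ATP synthase beta subunit gene atp-2 had 60333, 51016 and 53105 normalized counts in lonp-1(cmh24) and 112007, 111144 and 106828 in mrps-38(P210L). The groups did not overlap, and the log2 fold change was -1.01 ± 0.07 (adjusted p = 1.19e-08). gas-1, a core complex I subunit, had 5225, 4611 and 4841 counts in lonp-1(cmh24) and 9917, 10292 and 9574 in mrps-38(P210L), a log2 fold change of -1.02 ± 0.06. isp-1, the Rieske iron-sulfur protein of complex III, differed by -0.98 ± 0.05 and the cytochrome c oxidase subunit gene cox-4 by -0.85 ± 0.06. Of 35 genes of the TCA cycle and pyruvate entry, 32 were lower and 2 higher (median -0.77). They included citrate synthase cts-1 (-0.92), the succinyl-CoA ligase subunit suca-1 (-1.23), the glyoxylate enzyme icl-1 (-1.21) and the phosphoenolpyruvate carboxykinase pck-1 (-1.31). The exceptions were pdp-1 and pdhk-2, which act on the phosphorylation of pyruvate dehydrogenase, at 0.22 and 0.13, of which pdhk-2 did not pass without replicate 2 of lonp-1(cmh24) (0.10) or without replicate 2 of mrps-38(P210L) (0.11).

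Ratios of a mitochondrially encoded to a nuclear subunit of the same complex, on the per-length FPKM scale within each library, are free of scaling. The pairs were chosen after the values were seen, so their separation is no independent test. For complex V, the ratio of atp-6 to atp-2 was 2.97, 4.96 and 4.63 in lonp-1(cmh24) and 0.488, 0.501 and 0.506 in mrps-38(P210L). For complex IV, the ratio of ctc-1 to cox-4 was 6.13, 9.18 and 8.73 in lonp-1(cmh24) and 1.1, 0.971 and 1.08 in mrps-38(P210L). The mean ratio of nduo-5 to gas-1 was 6.28 in lonp-1(cmh24) and 1.02 in mrps-38(P210L), and that of ctb-1 to isp-1 was 4.54 in lonp-1(cmh24) and 1.04 in mrps-38(P210L). In each of these 4 pairs every lonp-1(cmh24) library exceeded every mrps-38(P210L) library, and the fold between the genotypes' ratios ran from 4.36 to 8.2 (exact permutation p = 0.1 each, the smallest possible). Wildtype means of the same ratios, from 0.675 for atp-6 to 1.69 for ctc-1, lay above those of mrps-38(P210L) and well below those of lonp-1(cmh24).

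**Figure D2:**
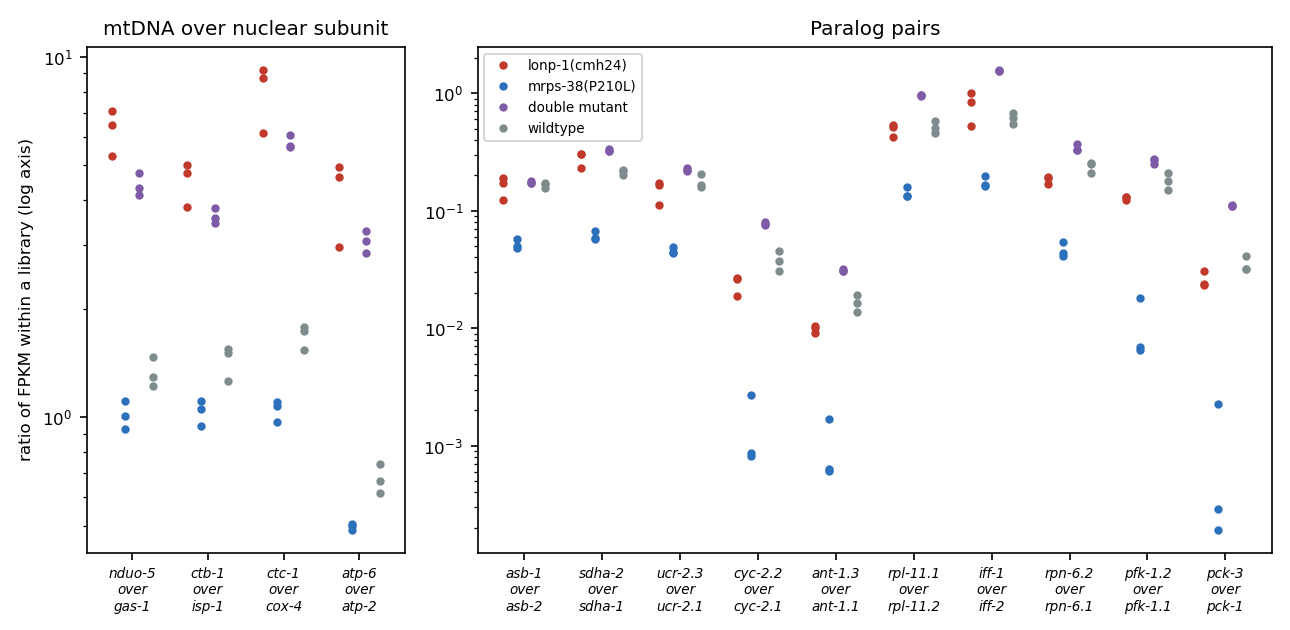
Ratio of 2 genes' FPKM within each library, on a log axis, for 4 pairs of mitochondrially and nuclear encoded subunits (left) and 10 pairs of paralogs (right); each point is 1 library, coloured by genotype. The lonp-1(cmh24) points lie above the mrps-38(P210L) points in every pair shown, for example 2.97 to 4.96 against 0.488 to 0.506 for atp-6 over atp-2.

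Proteins of the mitochondrial ribosome had modestly lower transcripts in lonp-1(cmh24) on the deposited scale only. Of 42 large-subunit genes, 30 were lower and 2 higher (median -0.34), but on FPKM 11 were lower and 20 higher (median 0.14). For 30 small-subunit genes the counts were 24 lower and 1 higher (median -0.45), turning to 7 and 13 on FPKM (median 0.03). mrpl-12 had the largest difference, with 1202, 1035 and 1134 counts in lonp-1(cmh24) and 2577, 2513 and 2532 in mrps-38(P210L), and stayed lower on FPKM (-0.69). mrps-14 went the other way, with 2622, 2542 and 2643 counts in lonp-1(cmh24) and 1908, 1951 and 1762 in mrps-38(P210L), a log2 fold change of 0.47 ± 0.05. Relative to the median of all genes, the large and small subunits stood at -0.38 and -0.49 on the deposited scale and at -0.38 and -0.49 on FPKM. The change of scaling moves all genes by nearly the same amount, so this match is built in and is no further test.

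Factors that translate, copy and transcribe the mitochondrial genome were higher more often than lower. Of 23 mitochondrial translation factors and tRNA enzymes, 13 were higher and 5 lower in lonp-1(cmh24), a median of 0.30. mttu-1, which modifies mitochondrial tRNAs, had 205, 221 and 192 counts in lonp-1(cmh24) and 68.9, 80.2 and 69.6 in mrps-38(P210L), a log2 fold change of 1.49 ± 0.15. The mitochondrial arginyl-tRNA synthetase gene rars-2 differed by 1.35 ± 0.10. Elongation factor tufm-1 was lower (-0.38), a direction that turns on FPKM (0.11). Among 10 genes of mitochondrial DNA maintenance and transcription, 7 were higher and 3 lower. The replicative polymerase gene polg-1 was higher in lonp-1(cmh24), with 459, 420.5 and 473 counts against 277, 239 and 219 in mrps-38(P210L) (0.88 ± 0.10). The mitochondrial helicase gene twnk-1 was lower, with 90.2, 65.0 and 79.3 counts in lonp-1(cmh24) and 205, 241 and 201 in mrps-38(P210L) (-1.46 ± 0.13).

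Import and carrier genes had 18 of 29 lower and 6 higher, with a median of -0.25 that turned to 0.24 on FPKM. Genes of mitochondrial division and removal were more often higher. Of 33 in the list of mitophagy, fission and fusion, 18 were higher and 7 lower, with a median of 0.22 on the deposited scale and 0.70 on FPKM. drp-1, the dynamin that divides mitochondria, had 3250, 3113 and 3198 counts in lonp-1(cmh24) and 1732, 1688 and 1721 in mrps-38(P210L). mff-2, whose homologues recruit the dynamin, had 1620, 1252 and 1302 counts in lonp-1(cmh24) and 394, 372 and 428 in mrps-38(P210L). allo-1, an autophagy receptor for paternal mitochondria, had 2340, 2146 and 2335 counts in lonp-1(cmh24) and 885, 816 and 831 in mrps-38(P210L). None of the 3 overlapped between the genotypes, as was so for 82.4% of all tested genes. Their log2 fold changes were 0.90 ± 0.04, 1.80 ± 0.09 and 1.43 ± 0.05. Against the majority, the autophagy regulators hlh-30 (-0.97) and unc-51 (-0.87) were lower.

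Genes of the mitochondrial stress response moved in both directions. Of 33 tested, 13 were higher and 12 lower in lonp-1(cmh24), close to the background in each direction, and the median of -0.05 turned to 0.43 on FPKM. hsp-6, the mitochondrial Hsp70 and a standard reporter of this response (chromosome V, 4824124 to 4826760), had 23579, 19267 and 20132 normalized counts in lonp-1(cmh24) and 23215, 23278 and 20800 in mrps-38(P210L). The groups overlapped, and the log2 fold change of -0.10 ± 0.08 had a 95% interval of -0.27 to 0.07 (adjusted p = 0.268). Both stood above wildtype, at a mean of 12828, by 0.71 in lonp-1(cmh24) and 0.81 in mrps-38(P210L) on the log2 scale (adjusted p = 5.08e-06 and 1.97e-06). Without replicate 1 of lonp-1(cmh24), the highest of its genotype, hsp-6 passed as lower (-0.19, adjusted p = 0.0278). On FPKM it passed as higher in lonp-1(cmh24) by 0.39, less than the move of all genes.

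The partner chaperonin hsp-60 differed. It had 16234, 14777 and 15250 counts in lonp-1(cmh24) and 33879, 30921 and 27498 in mrps-38(P210L), with wildtype at 20620. All lonp-1(cmh24) libraries were below all mrps-38(P210L) libraries, at -0.99 ± 0.07 (adjusted p = 5.18e-08) and -0.51 on FPKM. atfs-1, the transcription factor of the response, had 1847, 1860 and 1864 counts in lonp-1(cmh24) and 2500, 2481 and 2428 in mrps-38(P210L), at -0.41 ± 0.04 on the deposited scale and 0.07 on FPKM, where it did not pass. 7 other members did not pass the test on the deposited scale. They were the import channel gene timm-23 (95% interval -0.12 to 0.19), the protease gene spg-7 (-0.26 to 0.16), the ubiquitin-like gene ubl-5 (-0.36 to 0.03), the chromatin genes lin-65 (-0.22 to 0.07) and jmjd-1.2 (-0.05 to 0.20), the nuclear receptor gene nhr-68 (-0.26 to 0.00) and the kinase gene gcn-2 (0.00 to 0.23). All 7 passed as higher on FPKM, by 0.32 to 0.59. Without replicate 1 of lonp-1(cmh24), spg-7 (-0.17) and nhr-68 (-0.18) passed as lower and gcn-2 (0.15) as higher, and without replicate 2 ubl-5 passed as lower (-0.24).

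Another set was high in lonp-1(cmh24) alone of the single mutants. cyp-14A4, a cytochrome P450 gene that is induced under mitochondrial stress, had 590.1, 510.2 and 499 counts in lonp-1(cmh24) and 22.2, 17.7 and 22.1 in mrps-38(P210L), with 427 in the double mutant and 24.01 in wildtype. C07G1.7 had 1025, 1315 and 1239 counts in lonp-1(cmh24) and 7.003, 11.79 and 11.6 in mrps-38(P210L), with 1873 in the double mutant and 9.77 in wildtype. Their log2 fold changes between the single mutants were 4.63 ± 0.13 and 6.77 ± 0.20, and the related cyp-14A1 (2.77 ± 0.12) and the heme-transport gene hrg-9 (1.696 ± 0.080) were higher too. tbb-6, a beta-tubulin gene known to be induced under mitochondrial stress, had 1640, 1100 and 1159 counts in lonp-1(cmh24) and 154.1, 122.7 and 125.3 in mrps-38(P210L) (3.25 ± 0.15). In the other direction, the sulfide quinone oxidoreductase gene sqrd-1 had 349, 201 and 235 counts in lonp-1(cmh24) and 1062, 961 and 1011 in mrps-38(P210L), with 216 in wildtype (-1.99 ± 0.21). Among proteases, ymel-1 (0.23), clpp-1 (0.52) and rom-5 (0.43) were higher, and of 12 in that list 3 were higher and 5 lower, with a median of -0.06 that turned to 0.42 on FPKM. The lower count was near the 38.8% of all tested genes, and the higher count below their 42.6%.

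Genes for making cytosolic proteins were lower in lonp-1(cmh24). Of 81 cytosolic ribosomal protein genes, 79 were lower and 2 higher, and on FPKM 76 were lower. The median relative to all genes was -1.14 on the deposited scale and -1.14 on FPKM, a match built into the change of scaling. Together they took 13.9, 14.7 and 14.3% of reads in lonp-1(cmh24) and 22, 22 and 22.5% in mrps-38(P210L), with a mean of 18.5% in wildtype. rpl-3 had 79435, 77031 and 77005 counts in lonp-1(cmh24) and 192913, 187099 and 180440 in mrps-38(P210L), a log2 fold change of -1.26 ± 0.07 (adjusted p = 1.52e-09). Of 36 initiation and elongation factors 27 were lower and 6 higher, led in abundance by eef-1A.1 (-0.88 ± 0.07) and eef-2 (-1.05 ± 0.09). Cytosolic tRNA synthetases had 16 of 20 lower and 3 higher (median -0.58). Ribosome biogenesis genes had 20 of 33 lower and 6 higher on the deposited scale, with a median of -0.24 that turned to 0.25 on FPKM. The nucleolar genes dao-5 (-1.097), nol-58 (-0.94) and fib-1 (-0.85) were lower on both scales.

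Protein folding and degradation genes followed in part. For the proteasome 31 of 33 genes were lower and 1 higher, but the median of -0.39 turned to 0.09 on FPKM. Cytosolic heat shock genes were lower in 24 of 35 cases and higher in 7 (median -0.72). The abundant Hsp70 gene hsp-1 had 49066, 44364 and 45025 counts in lonp-1(cmh24) and 81476, 84304 and 80755 in mrps-38(P210L) (-0.83 ± 0.06). In the endoplasmic reticulum list 19 of 28 were lower and 4 higher, with 13 lower and 11 higher on FPKM. Among the lower ones on the deposited scale were the protein disulfide isomerase genes pdi-2 (-1.18) and pdi-6 (-1.33) and calreticulin crt-1 (-1.11). The paired BiP chaperone genes parted, with hsp-3 lower (-1.28 ± 0.09) and hsp-4 higher (0.48 ± 0.07), and the stress sensor gene ire-1 was higher (0.91 ± 0.05).

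Transcripts of sexual maturation were among the largest differences and were higher in lonp-1(cmh24). All 6 vitellogenin genes, which encode yolk proteins, were higher, with a median log2 fold change of 10.08, and 11.62 without replicate 3 of mrps-38(P210L). vit-2 had 51132, 65274 and 63528 normalized counts in lonp-1(cmh24) and 10.5, 9.44 and 236 in mrps-38(P210L), with 170642 in the double mutant and 6937 in wildtype. Replicate 3 of mrps-38(P210L) was above its replicates and still far below every lonp-1(cmh24) library. The log2 fold change was 10.93 ± 1.03 (adjusted p = 1.13e-05) and 12.41 without that replicate, against 10.23 and 10.16 without replicates 1 and 2. Vitellogenins took 0.753, 1.07 and 1.02% of reads in lonp-1(cmh24) and 0.000624, 0.000681 and 0.00383% in mrps-38(P210L). Genes of this family share sequence, so reads of single members are uncertain, and the same holds for major sperm protein, collagen and histone genes.

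Oocyte, eggshell and maternal mRNAs were higher for 45 of 49 genes and lower for 3, with a median of 3.63. cpg-2, a chondroitin proteoglycan of the eggshell, had 14501, 19345 and 18103 counts in lonp-1(cmh24) and 382, 423 and 523 in mrps-38(P210L), with 1558 in wildtype (5.29 ± 0.13). perm-2, of the eggshell's permeability barrier, had 6285, 9575 and 8784 counts in lonp-1(cmh24) and 7.003, 8.255 and 123 in mrps-38(P210L) (8.59 ± 0.93, 9.88 without replicate 3, and 7.90 and 8.0 without replicates 1 and 2). The embryonic germ granule gene meg-1 (8.71 ± 0.48) and the maternal nos-2 (7.39 ± 0.49) were among the largest. Without replicate 3 of mrps-38(P210L) they were at 9.24 and 7.91. Without its replicate 1 meg-1 was at 8.16, and without its replicate 2 nos-2 was at 6.79. Against the majority, lin-41, which also acts in larval timing, and moe-3 were lower (-1.08 and -0.75). Oocyte and maternal genes took 0.959% ± 0.154 of reads in lonp-1(cmh24) and 0.117% ± 0.00615 in mrps-38(P210L) (SD, n = 3 each).

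Sperm genes were also higher. All 31 tested major sperm protein genes and 63 of 64 other spermatogenesis genes passed as higher, with medians of 4.58 and 3.53. Without replicate 3 of mrps-38(P210L) the median of the major sperm proteins was 5.51 and that of the other spermatogenesis genes 4.0. msp-57 had 1431, 1442 and 1480 counts in lonp-1(cmh24) and 17.5, 18.9 and 156 in mrps-38(P210L), with 5813 in the double mutant and 968 in wildtype. Its log2 fold change was 5.23 ± 0.70, and 6.24 without replicate 3 of mrps-38(P210L), whose value was the highest of that genotype. The sperm-supplied factor gene spe-11 had 366, 376 and 412 counts in lonp-1(cmh24) and 2.33, 5.90 and 39.5 in mrps-38(P210L) (5.30 ± 0.74, 6.33 without replicate 3 and 4.53 without replicate 1). Of male-specific markers, 5 of 12 were abundant enough to test, with 1 higher and 3 lower, and the list took 0.00138% of reads in lonp-1(cmh24) and 0.00155% in mrps-38(P210L).

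Genes of the dividing and meiotic germ line followed at smaller size. Of 60 genes of germline proliferation and meiosis, 56 were higher and 1 lower (median 1.36), and of 52 DNA replication and cell cycle genes 50 were higher and none lower (median 1.03). spo-11, the meiotic break enzyme, had 373, 585 and 557 counts in lonp-1(cmh24) and 61.9, 55.4 and 73.1 in mrps-38(P210L) (2.95 ± 0.15). rad-50 of the break-repair complex differed by 2.92 ± 0.07, and the germline RNA-binding gene gld-1 by 2.09 ± 0.09. The ribonucleotide reductase gene rnr-2 (1.74 ± 0.06) and the B-type cyclin gene cyb-2.1 (3.87 ± 0.17) were higher, while the germ granule helicase gene glh-1 differed little (0.22 ± 0.04). 16 of 20 Argonaute genes were higher and 2 lower, with the spermatogenesis Argonautes alg-3 (3.68 ± 0.50, and 4.39 without replicate 3) and alg-4 (3.18 ± 0.44, and 3.801 without it) higher and the somatic microRNA Argonautes alg-1 (-0.97) and alg-2 (-0.65) lower. All libraries were labelled L4. A difference in developmental progress cannot be told apart from another effect of genotype, on these genes or on the other groups compared here.

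**Figure D3:**
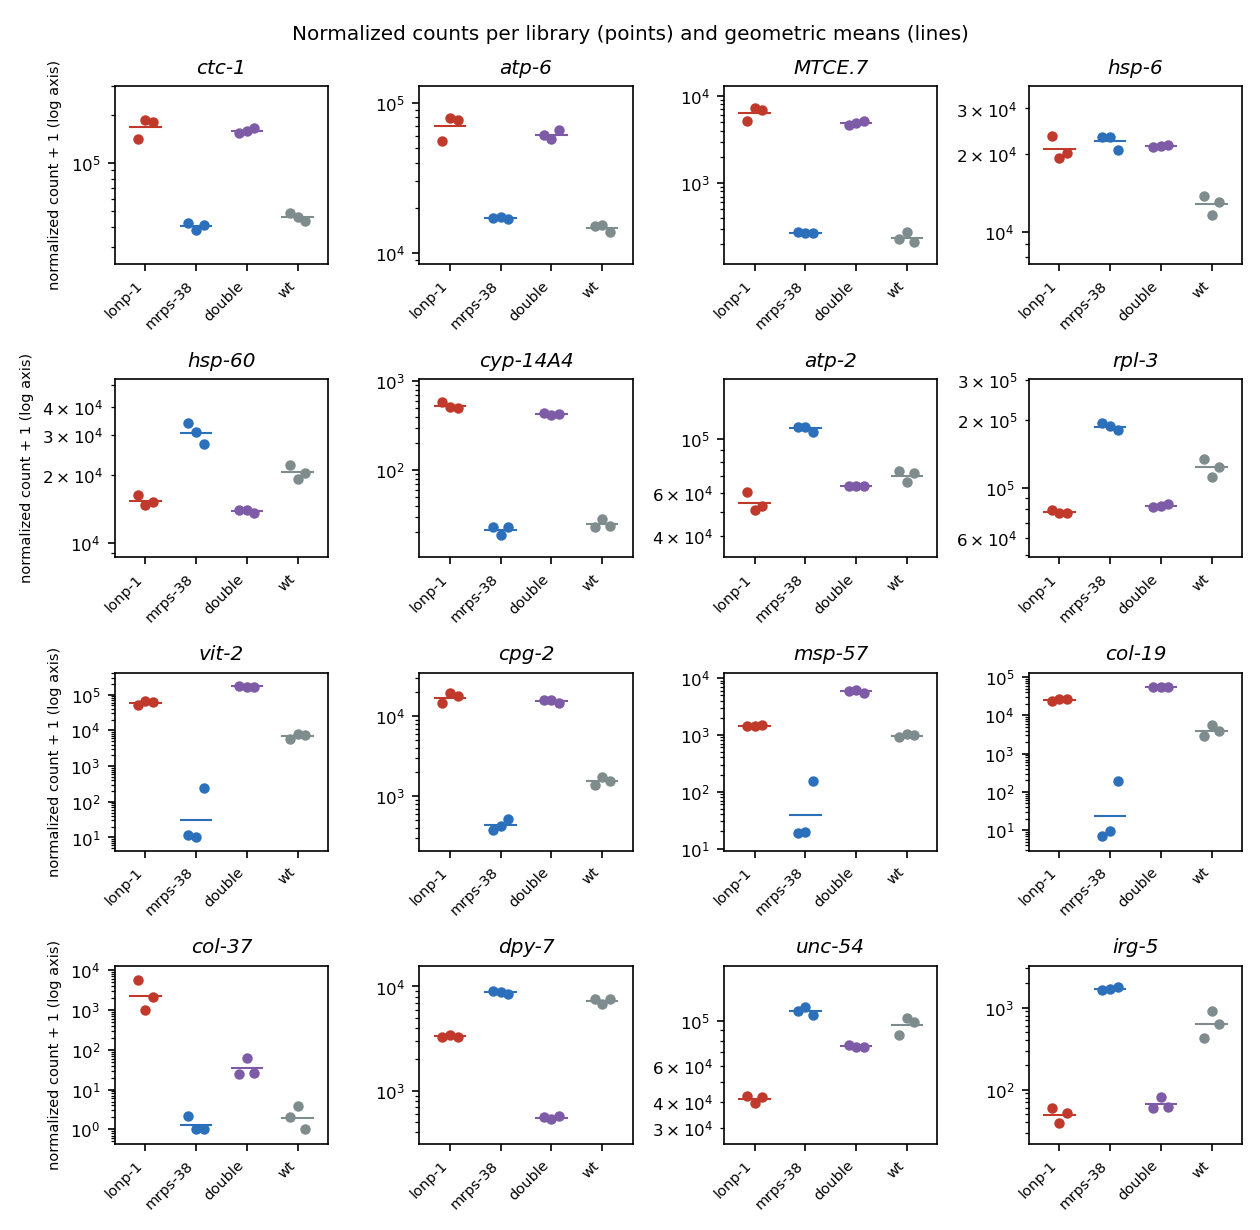
Normalized counts plus 1 (log axis) of 16 genes in the 3 libraries (points) of lonp-1(cmh24), mrps-38(P210L), the double mutant and wildtype, with lines at geometric means. In vit-2, msp-57 and col-19 replicate 3 of mrps-38(P210L) sits above its replicates and below every lonp-1(cmh24) library, whereas hsp-6 overlaps between the single mutants.

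Several of the members that went against a lower majority were paralogs of abundant genes. These pairs were chosen after the values were seen, and ratios within a library are free of scaling. asb-1, the germline paralog of an ATP synthase subunit, was higher in lonp-1(cmh24) (0.30 ± 0.06) and its somatic counterpart asb-2 lower (-1.33 ± 0.08). The ratio of asb-1 to asb-2 was 0.124, 0.191 and 0.173 in lonp-1(cmh24) and 0.0503, 0.0482 and 0.0571 in mrps-38(P210L), with means of 0.174 in the double mutant and 0.167 in wildtype. For the succinate dehydrogenase paralogs sdha-2 and sdha-1 the ratio was 0.23, 0.303 and 0.305 in lonp-1(cmh24) and 0.0572, 0.0583 and 0.0671 in mrps-38(P210L). The groups were separate in both pairs, and lonp-1(cmh24) lay nearer to wildtype than mrps-38(P210L) did.

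In the other pairs computed the ratio was also higher in lonp-1(cmh24), by different amounts. The difference was smallest for tufm-2 to tufm-1, with means of 0.318 in lonp-1(cmh24) and 0.194 in mrps-38(P210L). For gpd-1 to gpd-2 the means were 0.0961 in lonp-1(cmh24), 0.0157 in mrps-38(P210L) and 0.0502 in wildtype. The tufm and gpd pairs are not drawn in the figure. The ratio of ribosomal protein genes rpl-11.1 to rpl-11.2 was 0.422, 0.533 and 0.514 in lonp-1(cmh24) and 0.134, 0.132 and 0.16 in mrps-38(P210L). For the translation factor paralogs iff-1, which the germ line requires, and iff-2 it was 0.527, 1 and 0.845 in lonp-1(cmh24) and 0.164, 0.164 and 0.199 in mrps-38(P210L), with replicate 1 of lonp-1(cmh24) the lowest of its genotype. Mean ratios of the complex III paralogs ucr-2.3 to ucr-2.1 were 0.15 in lonp-1(cmh24) and 0.0459 in mrps-38(P210L), and of the cytochrome c genes cyc-2.2 to cyc-2.1 they were 0.0239 in lonp-1(cmh24) and 0.00147 in mrps-38(P210L) (0.000842 without its replicate 3). The proteasome paralogs rpn-6.2 and rpn-6.1 gave mean ratios of 0.184 in lonp-1(cmh24) and 0.0466 in mrps-38(P210L). Phosphofructokinases pfk-1.2 and pfk-1.1 gave 0.128 in lonp-1(cmh24) and 0.0105 in mrps-38(P210L) (0.00666 without its replicate 3). Adenine nucleotide translocases ant-1.3 and ant-1.1 gave 0.00988 in lonp-1(cmh24) and 0.000976 in mrps-38(P210L) (0.000617 without its replicate 3). The largest fold, 51.4, was that of pck-3 to pck-1. Its mean ratios were 0.0259 in lonp-1(cmh24) and 0.000914 in mrps-38(P210L) (0.00024 without its replicate 3). The mean FPKM of pck-3 in mrps-38(P210L) was only 0.342, so the size of that fold is uncertain. Within each of these pairs the 3 and 3 libraries did not overlap (exact permutation p = 0.1 each, the smallest possible). As the pairs were picked from members already seen to move apart, this separation describes them and is no independent test. Near-identical paralogs can share reads, so the split within a pair carries that uncertainty.

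Cuticle genes moved in both directions, with adult-type collagens higher and furrow collagens lower in lonp-1(cmh24). All 16 collagens of the adult-type list were higher in lonp-1(cmh24), with a median of 8.05, and 8.76 without replicate 3 of mrps-38(P210L). col-19, the standard adult collagen marker (chromosome X, 421707 to 422691), had 23544, 26624 and 27059 counts in lonp-1(cmh24) and 5.84, 8.26 and 192 in mrps-38(P210L), with 4113 in wildtype. Its log2 fold change was 10.12 ± 1.09 (adjusted p = 2.67e-05), with 11.66 without the high replicate 3 of mrps-38(P210L) and 9.25 and 9.47 without its replicates 1 and 2. col-8 had 13201, 22597 and 20232 counts in lonp-1(cmh24) and 3.502, 3.538 and 4.642 in mrps-38(P210L), the largest fold change in the main fit of any gene that met the naming rule (11.87 ± 0.21). Without replicate 3 of mrps-38(P210L), vit-5 (12.90), col-119 (12.58), vit-2 (12.41) and vit-3 (12.24) exceeded it (11.98). The collagen genes bli-1 (3.47 ± 0.49) and bli-2 (3.64 ± 0.46), which form struts of the adult cuticle, were higher (4.13 and 4.27 without replicate 3 of mrps-38(P210L)), though wildtype held more than lonp-1(cmh24) of both, at 12590 and 14314 counts.

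Collagens and matrix genes made at each larval molt were lower. All 6 furrow collagen genes passed as lower, with a median of -1.44 and -0.95 on FPKM. dpy-7 had 3315, 3397 and 3278 counts in lonp-1(cmh24) and 9144, 8862 and 8506 in mrps-38(P210L), with 554 in the double mutant and 7316 in wildtype (-1.41 ± 0.05, adjusted p = 1.42e-10). Of 61 genes of molting and the apical matrix 49 were lower and 8 higher (median -0.68), with the cuticlin gene cut-2 at -2.75 ± 0.10, the protease inhibitor gene mlt-11 at -1.56 ± 0.11 and the molting regulator nhr-25 at -2.01 ± 0.12. The collagens col-17 (-2.44 ± 0.06), col-41 (-2.89 ± 0.30) and col-166 (-1.72 ± 0.14) were lower too, against the majority of their family. Of 143 tested genes named col-, 78 were higher and 50 lower in lonp-1(cmh24), with a median of 0.61. Of 16 body-shape and blister collagens 10 were lower and 4 higher, with a median of -1.14 and -0.66 on FPKM. Of 18 heterochronic genes, which time larval stages, 13 were lower and 4 higher. The nuclear receptor gene daf-12 was at -1.89 ± 0.08, the let-7 locus at -1.59 ± 0.11, lin-42 at -1.26 ± 0.09 and blmp-1 at -1.32 ± 0.10, with lin-28 (0.53 ± 0.05) higher.

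A further set of cuticle genes was high in lonp-1(cmh24) and low in the 3 other genotypes. col-37 had 5604, 1006 and 2076 counts in lonp-1(cmh24) and 1.17, 0 and 0 in mrps-38(P210L), with 37.3 in the double mutant and 1.28 in wildtype. The hedgehog-related gene grl-25 had 4134, 693 and 1338 counts in lonp-1(cmh24) and 1.17, 2.36 and 0 in mrps-38(P210L), with 43.3 and 6.84 in the double mutant and wildtype. The cuticlin gene cut-1 had 2541, 478 and 909.9 counts in lonp-1(cmh24) and 1.17, 1.18 and 2.32 in mrps-38(P210L), with 36.3 and 3.28 in the double mutant and wildtype. In all 3 genes replicate 1 of lonp-1(cmh24) was the highest, by more than 2-fold over its replicates, and without it the log2 fold changes of 10.78 ± 0.68, 9.66 ± 0.63 and 8.69 ± 0.61 were 10.13, 8.96 and 8.04. With mrps-38(P210L) counts near the floor, the sizes also moved with the method. Over all alternative fits col-37 ran from 8.73 to 12.75, grl-25 from 7.96 to 10.77 and cut-1 from 7.31 to 9.71. col-40, col-102, grl-20 and grl-23 had the same order of libraries, with log2 fold changes of 9.70, 10.30, 7.82 and 9.88, and without replicate 1 of 9.04, 9.67, 7.17 and 9.19. Without replicate 2 of lonp-1(cmh24), grl-25 was at 10.25 and col-40 at 10.32, and without replicate 2 of mrps-38(P210L) col-40 was at 9.05. Without replicate 3 of mrps-38(P210L), grl-25 was at 9.18. The collagen dpy-14 (5.26 ± 0.38) was also highest in lonp-1(cmh24), but its replicate 1 was the lowest of the genotype.

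Markers of somatic tissues were mostly lower in lonp-1(cmh24), beside the higher germline transcripts. Of 36 body wall muscle genes 35 were lower and 1 higher (median -1.17), and they took 2.1% ± 0.0647 of reads in lonp-1(cmh24) and 3.51% ± 0.0396 in mrps-38(P210L) (SD, n = 3 each). The myosin heavy chain gene unc-54 had 42779, 39678 and 42419 counts in lonp-1(cmh24) and 112024, 117134 and 106187 in mrps-38(P210L), with 95583 in wildtype (-1.43 ± 0.07). For the pharynx 21 of 22 were lower and none higher (median -1.41), with the pharyngeal myosin gene myo-2 at -1.87 ± 0.09. The counts were 16 lower and 2 higher of 19 for hypodermis and seam, 16 and 4 of 26 for intestine, and 10 and 1 of 11 for excretory cells and coelomocytes. Relative to the median of all genes, these lists stood at -0.80, -0.76 and -0.74 on the deposited scale and at -0.79, -0.76 and -0.74 on FPKM. That match is built into the change of scaling. The list of somatic gonad, uterus and vulva was mixed, with 6 of 22 higher and 11 lower, a median of -0.34 that turned to 0.14 on FPKM, and the gonadal innexin genes inx-8 (2.96 ± 0.20) and inx-14 (2.63 ± 0.13) higher.

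Of 50 neuronal genes 41 were lower and 3 higher (median -0.94). The neuropeptide-processing gene egl-21 had 2582, 2855 and 2815 counts in lonp-1(cmh24) and 5317, 5345 and 4890 in mrps-38(P210L) (-0.91 ± 0.06), and the touch-neuron tubulin gene mec-7 was at -1.36 ± 0.06. Of 120 neuropeptide and insulin genes 86 were lower and 9 higher (median -0.62). Against this, the enzymes of octopamine synthesis were higher. tdc-1, the tyrosine decarboxylase, had 1888, 2472 and 2397 counts in lonp-1(cmh24) and 396, 386 and 382 in mrps-38(P210L), with 420.0 in wildtype. tbh-1, the tyramine beta-hydroxylase, had 748, 1169 and 1087 counts in lonp-1(cmh24) and 23.3, 28.3 and 20.9 in mrps-38(P210L), with 97.4 in wildtype. The groups did not overlap in either gene, at 2.52 ± 0.08 and 5.30 ± 0.33. Both genes are known to be expressed in the gonad as well as in neurons.

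The X chromosome, which in worms carries few genes expressed in the germ line, had a lower median than each autosome. Of 2248 tested X-linked genes 423 were higher and 1367 lower on the deposited scale, with a median log2 fold change of -0.49, or -0.53 relative to all genes. Scaling to total reads moved the median of all genes up by 0.48, about the size of the X median. The counts higher and lower on X therefore depend on the scaling, whereas its place below the autosomes does not. Autosome medians ran from 0.04 on chromosome V to 0.22 on chromosome IV. The part of germline transcripts in this difference was not tested.

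**Figure D4:**
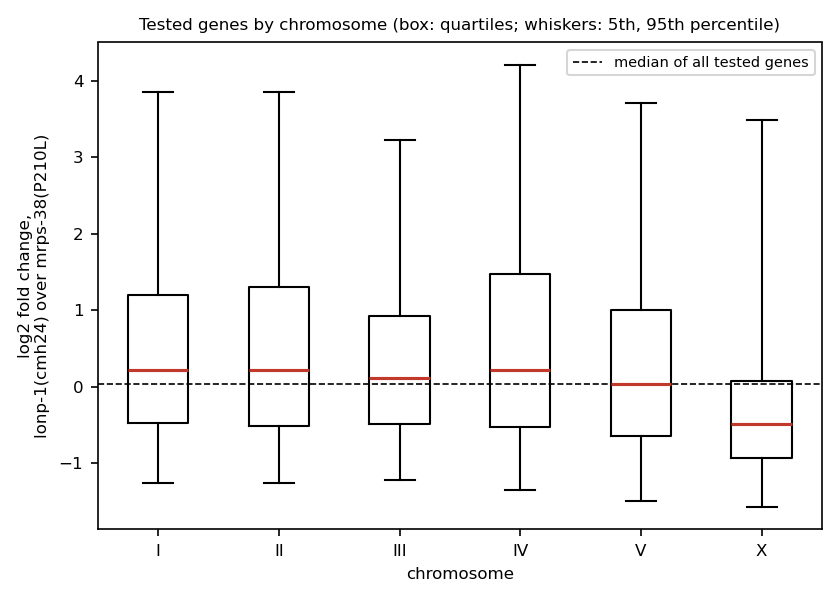
Log2 fold change of tested genes, lonp-1(cmh24) over mrps-38(P210L), by chromosome, with boxes at the quartiles, red lines at the medians and whiskers at the 5th and 95th percentiles. On the deposited scale the median of chromosome X (-0.49) lies below the dashed line at the median of all tested genes (0.04), and those of the autosomes lie at or above it.

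Metabolic genes outside mitochondria were lower in part. In the list of propionate, methionine and phosphatidylcholine metabolism 26 of 38 were lower and 7 higher, among them the S-adenosylhomocysteine hydrolase gene ahcy-1 with 42423, 32877 and 34984 counts in lonp-1(cmh24) and 113578, 110588 and 111932 in mrps-38(P210L) (-1.62 ± 0.12) and the propionate shunt gene hach-1 (-1.54 ± 0.07). Of 55 genes of beta-oxidation and lipolysis 39 were lower and 11 higher, but on FPKM 22 were lower and 18 higher (median -0.07). acdh-2, an acyl-CoA dehydrogenase gene, had 145, 276 and 252 counts in lonp-1(cmh24) and 2786, 2623 and 2683 in mrps-38(P210L) (-3.64 ± 0.20), and the acyl-CoA oxidase gene acox-1.2 was at -2.75 ± 0.06. The fatty acid synthase gene fasn-1 (-1.25 ± 0.06) and the desaturase gene fat-7 (-2.44 ± 0.18) were lower, with fat-7 below wildtype (1635 counts) in both mutants. Vacuolar ATPase genes were lower in 17 of 20 cases and higher in 2 (median -0.71). Fatty acid desaturases and elongases had 13 of 19 lower and 4 higher. Each of these 4 lists also reached large values on the higher side. The highest log2 fold changes were 2.79 for propionate, methionine and phosphatidylcholine metabolism and 4.11 for beta-oxidation and lipolysis. They were 2.95 for desaturases and elongases and 2.68 for the vacuolar ATPase. Glycolysis genes split, with 11 of 20 lower and 6 higher on the deposited scale and a median of -0.21 that turned to 0.28 on FPKM. The hexokinase gene hxk-1 (1.42 ± 0.06) and the paralogs gpd-1 (2.31 ± 0.14) and gpd-4 (1.14 ± 0.11) of glyceraldehyde-3-phosphate dehydrogenase were higher, whereas gpd-2 (-0.27) and gpd-3 (-0.41) were lower on the deposited scale and at 0.22 and 0.07 on FPKM.

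Detoxification families had different majorities. Of 61 cytochrome P450 genes 33 were higher and 11 lower (median 0.45), whereas 24 of 38 glutathione S-transferase genes were lower and 6 higher (median -0.58). cyp-33C8 had 5638, 3714 and 4295 counts in lonp-1(cmh24) and 635, 611 and 534 in mrps-38(P210L) (2.92 ± 0.12). gst-24 had 250.4, 346 and 330.3 counts in lonp-1(cmh24) and 1104, 1137 and 1005 in mrps-38(P210L), with 295 in wildtype (-1.82 ± 0.11). Genes of the hypoxia and sulfide response were lower for 15 of 19 and higher for 2, with cysl-2 at -2.48 ± 0.09 and hif-1 at -0.86 ± 0.07, while the ferritin gene ftn-1 was higher (2.11 ± 0.28) and its paralog ftn-2 lower (-1.16 ± 0.13). UDP-glucuronosyltransferases had 22 of 60 higher and 24 lower on the deposited scale, a split that turned to 33 and 9 on FPKM, with ugt-62 (2.45 ± 0.12) and ugt-29 (2.71 ± 0.07) among the higher ones on both. The counts were near the shares of all tested genes, 42.6% higher and 38.8% lower, and 58.4% and 19.2% on FPKM.

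Lists of different defences against pathogens differed in direction. Of 41 genes of the intracellular pathogen response, which worms mount against microsporidia and viruses, 28 were higher and 3 lower in lonp-1(cmh24) (median 1.27). pals-6 had 609.5, 367.8 and 422.8 counts in lonp-1(cmh24) and 15.17, 16.51 and 8.123 in mrps-38(P210L), with 17.3 in wildtype (5.06 ± 0.24). pals-14 had 432, 149 and 209.7 counts in lonp-1(cmh24) and 5.84, 4.72 and 3.48 in mrps-38(P210L) (5.42 ± 0.41), and replicate 1 of lonp-1(cmh24) was the highest in both. Of 48 innate immune effectors 32 were lower and 10 higher (median -0.71), and on FPKM 19 were lower and 15 higher (median -0.21). irg-5 had 58.2, 38.7 and 51.2 counts in lonp-1(cmh24) and 1627, 1678 and 1784 in mrps-38(P210L), with 66.1 in the double mutant and 656 in wildtype (-5.09 ± 0.24, adjusted p = 5.08e-09). The lysozyme gene lys-4 (-2.96 ± 0.28) and the saposin-like gene spp-4 (-3.23 ± 0.11) were lower too, and irg-2 (2.75 ± 0.19) was higher. The largest log2 fold change among the innate immune effectors was on the higher side, at 7.42. F-box A genes, a large family of putative ubiquitin ligase adaptors, were higher for 108 of 151 and lower for 6 (median 1.19).

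**Figure D5:**
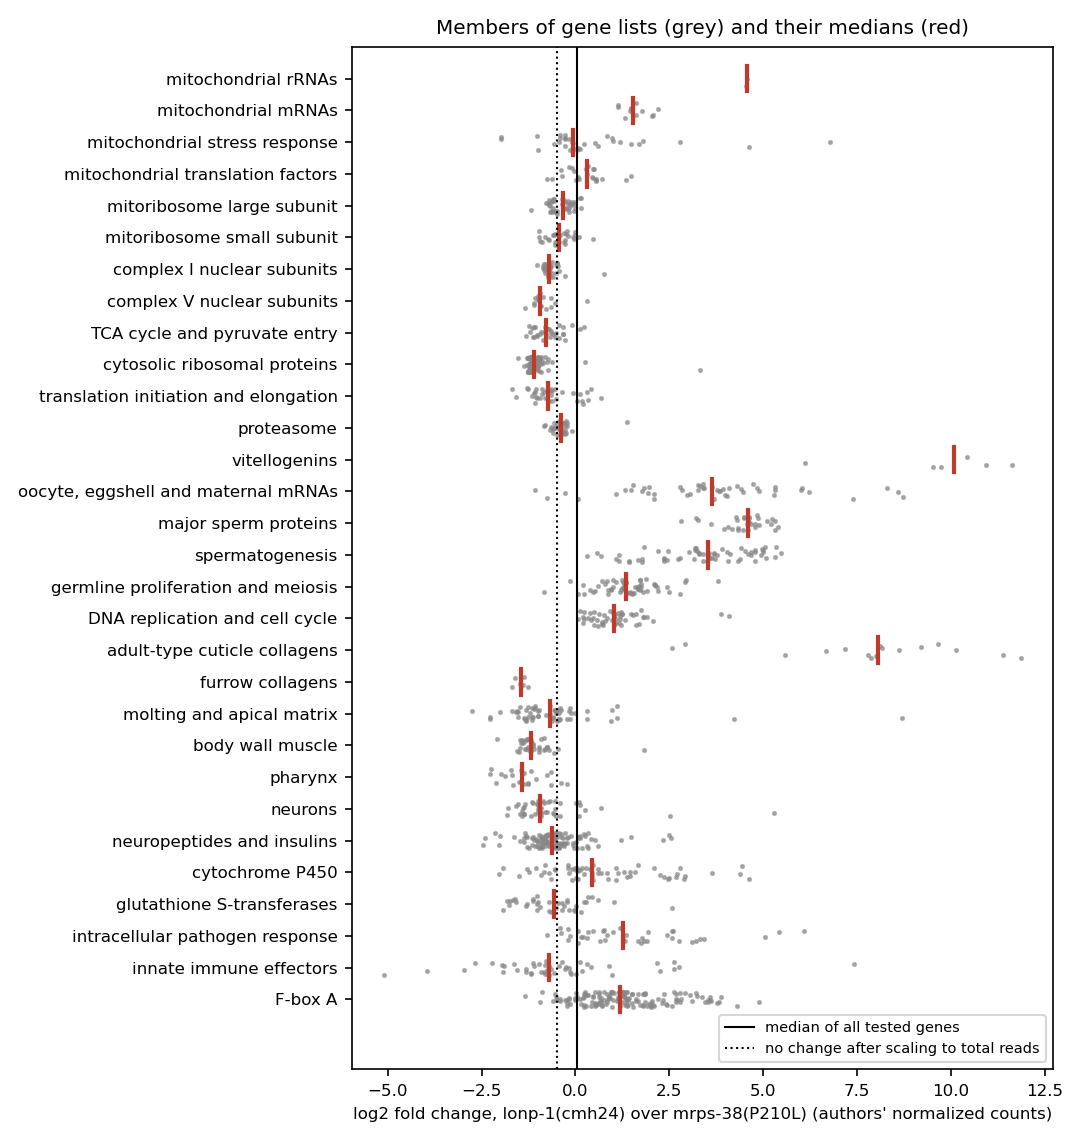
Log2 fold change of each tested member (grey points) of 30 gene lists, lonp-1(cmh24) over mrps-38(P210L), with red ticks at list medians; the solid line marks the median of all tested genes and the dotted line the place of no change after scaling to total reads. Lists whose median lies between the lines, such as the mitochondrial ribosome subunits (-0.34 and -0.45) and the proteasome (-0.39), change direction with the scaling.

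Some genes had no reads in 1 of the single mutants. Of the tested genes, 78 had no read in the 3 mrps-38(P210L) libraries and some in lonp-1(cmh24), and 1 had no read in lonp-1(cmh24). R04F11.3 (chromosome V, 12314919 to 12317180, protein-coding) had 1086, 1408 and 1393 counts in lonp-1(cmh24), none in mrps-38(P210L), 1599 in the double mutant and 974 in wildtype. Against a floor of 3 reads per library it was at least 369-fold higher in lonp-1(cmh24). The converse was C09E7.8 (chromosome III, 6553627 to 6558587, protein-coding), with no read in lonp-1(cmh24) or the double mutant, 113, 160.4 and 172 counts in mrps-38(P210L) and 362 in wildtype, at least 59.6-fold lower in lonp-1(cmh24). Others of the largest lower genes also had low means in the double mutant, including C36C5.14 with 1.69, 4.94 and 6.61 counts in lonp-1(cmh24), 168, 149 and 167 in mrps-38(P210L) and 9.95 in the double mutant. lips-6, a lipase-related gene, had 15.2, 9.87 and 13.2 counts in lonp-1(cmh24), 382, 388 and 406 in mrps-38(P210L) and 17.9 in the double mutant. EGAP4.1 was high in mrps-38(P210L) alone, with 26.1, 39.5 and 32.2 counts in lonp-1(cmh24), 479.7, 519 and 532 in mrps-38(P210L), 24.1 in the double mutant and 32.1 in wildtype.

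The comparisons of each single mutant with wildtype place these differences, and they share the 3 wildtype libraries. lonp-1(cmh24) had 4805 genes higher than wildtype (30.6%) and 5043 lower (32.1%), and mrps-38(P210L) had 4957 higher (31.5%) and 5461 lower (34.7%). For mitochondrial mRNAs the median against wildtype was 1.76 in lonp-1(cmh24), with 12 of 12 higher, and 0.08 in mrps-38(P210L), with 3 higher. On total reads the median of mrps-38(P210L) turned to -0.17, with none higher and 3 lower, and these mRNAs took 0.574% of reads in mrps-38(P210L) and 0.668% in wildtype. Major sperm proteins had medians of 0.33 in lonp-1(cmh24), with none higher and 1 lower of 31, and -4.28 in mrps-38(P210L), with 31 lower. Without replicate 3 of mrps-38(P210L), 18 of them passed as higher and 6 as lower in lonp-1(cmh24) at the same median, and the median was -5.24 in mrps-38(P210L). No mrps-38(P210L) library enters the means of lonp-1(cmh24) and wildtype. The count of none higher and 1 lower thus rests on the estimate of the spread, which all 12 libraries share. Vitellogenins were at 2.89 in lonp-1(cmh24), with 5 of 6 higher, and -7.43 in mrps-38(P210L), with 6 lower and a median of -8.74 without replicate 3. Cytosolic ribosomal proteins were at -0.61 in lonp-1(cmh24), with 79 of 81 lower, and 0.49 in mrps-38(P210L), with 73 higher, or -0.38 in lonp-1(cmh24) and 0.23 in mrps-38(P210L) on total reads, with 77 lower and 54 higher. Complex I subunits were at -0.35 in lonp-1(cmh24), with 35 of 35 lower, and 0.33 in mrps-38(P210L), with 32 higher, and total reads brought these to -0.12 in lonp-1(cmh24) and 0.07 in mrps-38(P210L), with 18 lower and 13 higher. Neuropeptides and insulins were at -0.05 in lonp-1(cmh24), with 21 higher and 20 lower of 120, and 0.68 in mrps-38(P210L), with 83 higher. On total reads the neuropeptide and insulin medians were 0.18 in lonp-1(cmh24), with 44 higher and 6 lower, and 0.42 in mrps-38(P210L). These values on total reads and without replicate 3 were computed after seeing the data.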

How the data were processed

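RNA of whole worms was sequenced as stranded paired-end reads, per the labels' protocols. The submitters' processing notes name STAR, featureCounts, DESeq2 and the build WBcel235 (their versions are not given in the sources used here). Deposited by the authors were normalized counts (a signal scaled by size factors) and FPKM for 19568 genes in 12 libraries, 3 for each of 4 genotypes. Division by the smallest step of each library gave whole reads for 100.0% of the deposited normalized count values (tolerance 0.01), hence the depths. The main test was limma 3.58.1 (trend, robust; R 4.3.3) on log2 of the authors' deposited normalized count plus a pseudocount of 1, over genes with a mean of at least 10, with all 12 libraries in 1 fit and Benjamini-Hochberg adjustment (threshold 0.05). Errors of log2 fold changes are standard errors. Alternatives were DESeq2 1.42.0 and edgeR 4.0.16 with these whole reads, the authors' deposited FPKM (pseudocount 0.1, filter 0.5), total reads, TMM, other pseudocounts and filters, and libraries left out. Shares and FPKM ratios used exact permutation tests in scipy 1.17.1. Gene positions are from the WBcel235 annotation. Named genes were the 15 largest changes in each direction without overlap and with a mean of at least 50, the vitellogenins, the genes of mitochondrial DNA, atfs-1, hsp-60, hsp-6 and lonp-1, the largest, most abundant and opposing called members of each list, and stress response members that did not pass. Genes outside the rule were chosen after their values were seen. The genes, lists and pairs were chosen with earlier results of these data known. 96 list entries matched no gene of the table. The mrps-38, atf-4 and atf-5 transcripts were not analysed here.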

Additional observations from a re-analysis of the deposited data

How the results depend on the processing

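The count of genes higher in lonp-1(cmh24), 6703, stayed between 6456 and 6707 when any 1 of the 6 compared libraries was left out, and the count lower, 6106, between 5786 and 6076. The counts of at least 2-fold differences ranged from 3923 to 4067 higher and from 1914 to 2061 lower in the same fits. edgeR called 7040 higher and 5761 lower, and DESeq2 6560 and 5989. Scaling moved the lower side most: 3064 genes were lower on FPKM and 3086 on total reads, of which 610 and 633 were at least 2-fold lower. The same-numbered replicates of the single mutants did not deviate together (correlations 0.067, -0.074 and 0.04), so the numbers were not taken as pairs. A fit with the replicate number as a block gave 6682 higher and 6062 lower, and 6410 and 5758 with only these 2 genotypes. Of 439 named genes, 16 changed direction on FPKM and on total reads, with the same log2 fold change at 2 decimals on both: let-70 (0.07), pals-22 (0.10), tufm-1 (0.11), mrps-18C (0.00), gst-1 (0.27), his-72 (0.15), chil-10 (0.07), gpd-3 (0.07), gpd-2 (0.22), mppa-1 (0.03), pas-3 (0.01), lonp-1 (0.22), atfs-1 (0.07), mrpl-14 (0.20), enol-1 (0.17) and clec-63 (0.04). Without replicate 3 of mrps-38(P210L) and with only these 2 genotypes, a fit chosen after seeing the data, 6413 genes were higher and 5736 lower. With 3 libraries a genotype no exact permutation test could fall below 0.1.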

Other observations

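Some families outside the groups above held single genes with large differences. Among C-type lectin genes 37 passed as higher, 68 as lower and 24 did not pass on the deposited scale, with a median of -0.40 that turned to 0.11 on FPKM. clec-87 had 5678, 8773 and 8078 counts in lonp-1(cmh24) and 159.9, 126 and 176 in mrps-38(P210L), with 369 in wildtype (5.59 ± 0.17). clec-91 (5.37 ± 0.19) and clec-88 (4.85 ± 0.20) were higher as well, and the 3 and 3 libraries did not overlap in any of these genes. Transthyretin-related genes had 19 higher and 21 lower of 52, and a median of -0.15 that turned to 0.33 on FPKM. These counts were near the shares of all tested genes, 42.6% higher and 38.8% lower. ttr-14 had 2459, 2823 and 2847 counts in lonp-1(cmh24) and 2.334, 2.359 and 53.38 in mrps-38(P210L), with 2952 in wildtype (8.32 ± 0.96, with 9.66 without replicate 3 of mrps-38(P210L) and 7.64 and 7.65 without its replicates 1 and 2).

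Of 200 nuclear hormone receptor genes 50 were higher and 76 lower on the deposited scale, and 103 and 38 on FPKM. Among all tested genes 42.6% were higher and 38.8% lower, and on FPKM 58.4% and 19.2%. nhr-244 had 137, 185 and 178 counts in lonp-1(cmh24) and 2.33, 4.72 and 4.64 in mrps-38(P210L), with 156 in the double mutant and 2.28 in wildtype. nhr-155 had 19.4, 15.6 and 19.8 counts in lonp-1(cmh24) and 155, 154 and 152 in mrps-38(P210L), with 30.6 in wildtype. Their log2 fold changes were 5.13 ± 0.32 and -3.01 ± 0.19. Tubulin genes were lower for 11 of 16 and higher for 2, with the alpha-tubulin gene tba-8 at 91.9, 86.4 and 81.8 counts in lonp-1(cmh24) and 692, 689.9 and 660.3 in mrps-38(P210L) (-2.96 ± 0.28). The linker histone gene hil-8 had 217, 257 and 305 counts in lonp-1(cmh24) and 4.67, 7.08 and 9.28 in mrps-38(P210L), a log2 fold change of 5.05 ± 0.21, and his-24, of the same class, was lower at -1.51 ± 0.08.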
